A study of Mus musculus with 84 samples.

Results

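RNA from 10 lung metastases of mice carrying the MMTV-Wnt-1 transgene was compared with RNA from 23 primary mammary tumors of mice carrying the same transgene. Members were taken by their title, WntM for the metastases and WntT for the tumors, and they make up 33 of the 65 arrays of 15360 spotted mouse cDNA clones and 33 of the 84 samples of the series. The transgene places Wnt-1, a secreted growth factor, under the enhancer of the mouse mammary tumor virus (MMTV), which is active mainly in mammary epithelium. The mice were of mixed strain, mostly FVB with SJL and C57BL/6. Some primary tumors of this line carry activating Ha-Ras mutations, and neither the Ras status nor the age of the mice with metastases is given in the sources used here. Each array was hybridized with Cy5-labeled sample RNA and a Cy3-labeled reference, a pool of several mouse organs (lung among them) and the lactating mammary gland. All values are log2 ratios of sample to reference as normalized by the authors, and a difference is the mean log2 ratio of the metastases minus that of the tumors, with its standard error (SE). The labels call each sample a metastasis or a tumor and do not say whether any of them came from the same mouse, so p-values measure only the spread between these samples. Beside them stand 12 primary tumors of MMTV-Neu mice (pure FVB, with a rat cDNA of the wild-type Neu receptor), 3 lung metastases of MMTV-Neu mice and 2 lung metastases of nontransgenic mice whose tail vein had received cells of a primary Neu tumor. These 5 metastases carry 3 title numbers (53, 56 and 61), which 3 of the Neu tumors also carry, and the labels do not say whether a number names a mouse, so the 5 may not be separate animals.

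Wnt-1 binds Frizzled and Lrp receptors and stabilizes beta-catenin, which with TCF factors switches on target genes, and mammary tumors made this way contain luminal and myoepithelial cells. A metastasis grows among the airways, alveoli and vessels of the lung, and a piece of it cut out for RNA can carry these tissues. Alveolar type II cells make the surfactant proteins C and B (Sftpc and Sftpb), and club cells of the airways make secretoglobin 1A1 (Scgb1a1), and neither kind of cell is part of the mammary gland.

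All 3 of these genes were higher in every metastasis than in any Wnt-1 tumor. The Scgb1a1 ratios of the metastases ran from -1.42 to 2.82 with a median of 0.96 on the log2 scale, and those of the tumors from -8.64 to -5.00 with a median of -6.84. The groups lay far apart, and the difference was 7.41 (SE 0.43), with an adjusted p of 4.2e-14. In 13 of the 23 tumors the Scgb1a1 ratio was under 0.01, where the deposited ratios are coarse steps, so the size of this difference is not exact. With those tumors set to 0.01 the metastases were at least 118-fold higher. Sftpc ran from -0.20 to 2.08 with a median of 1.09 in the metastases, and from -9.12 to -3.72 with a median of -5.06 in the tumors. Its difference was 6.33 (SE 0.38, adjusted p = 6.8e-14). Sftpb was measured by 2 clones whose differences were unequal, 5.79 (SE 0.46) and 1.69 (SE 0.11), and on either clone the metastases stood above all tumors. Over the 15360 clones, 0.169% had every metastasis above every tumor and 0.0195% had every metastasis below.

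The base sequence upstream of Sftpb is shown because this gene is 1 of the 3 markers of lung used here. It spans 250 bases before to 50 after the gene's start (RefSeq, GRCm38.p6, chr6:72304360-72304659, plus strand), and capitals mark the letters CTCAAG, the core of sites of the lung factor Nkx2-1, searched as CTCAAG and CTTGAG.
Sftpb: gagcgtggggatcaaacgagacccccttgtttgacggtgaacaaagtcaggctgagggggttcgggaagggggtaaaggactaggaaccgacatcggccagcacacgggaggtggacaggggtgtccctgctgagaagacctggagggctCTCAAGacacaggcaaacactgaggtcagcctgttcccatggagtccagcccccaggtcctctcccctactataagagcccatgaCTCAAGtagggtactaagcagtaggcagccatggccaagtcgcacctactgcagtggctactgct
The window holds the motif 2 times. Of 32851 mouse promoters of the same length, 15.9% held it 1 or more times and 1.40% held it 2 or more times. Promoters of Sftpc and Scgb1a1 are not shown here, and Nkx2-1 has no clone of its single symbol on the array.

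The mean of the 3 markers, called the lung marker level here, was taken for each array. It was -0.46, 1.64, 0.55, 1.84, 1.24, 2.02, 0.77, 1.79, 0.99 and -0.06 in the metastases numbered 18, 19, 36, 38, 42, 47, 49, 50, 52 and 62. In the tumors it ran from -7.05 to -3.81 with a median of -4.86, so that the lowest metastasis lay 3.36 above the highest tumor. Metastases 18 and 62 were the lowest of their group. In the Neu model the 5 metastases ran from -2.0 to 1.18 and all lay above the Wnt-1 tumors, and 4 of them lay below every Wnt-1 metastasis. Among the 23 tumors the level fell as the SD of the array's log2 ratios rose (Pearson r = -0.93, adjusted permutation p = 8e-05; Spearman rho = -0.92, adjusted permutation p = 8e-05, the smallest that the permutations can give). Without the 2 arrays farthest from the median SD, r was -0.89. In the 10 metastases the same relation had r = 0.44 (adjusted permutation p = 0.27; rho = 0.31, adjusted permutation p = 0.43), and r was 0.44 without the 2 farthest arrays. These are 2 of 8 relations tested together.

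**Figure D1:**
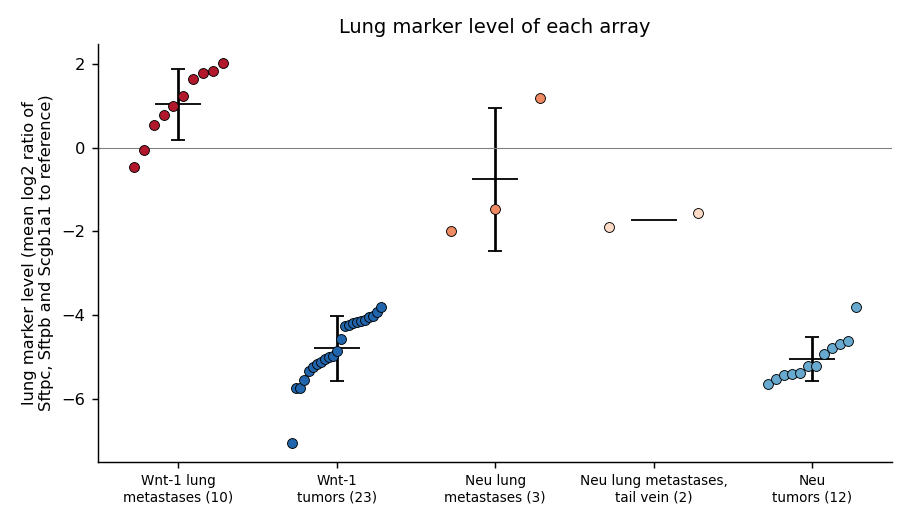
The lung marker level (mean log2 ratio of Sftpc, Sftpb and Scgb1a1 to reference) of each array, 1 point an array, for Wnt-1 and Neu metastases and tumors, with horizontal bars for the mean and vertical bars for 1 SD where a group has over 2 arrays. The 10 Wnt-1 metastases sit between -0.46 and 2.02, all above the 23 Wnt-1 tumors, which sit between -7.05 and -3.81.

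Over all clones, 380 were higher in the metastases (2.47% of 15360) and 330 were lower (2.15%), at an adjusted p under 0.05. A single gene symbol was carried by 314 of the higher and 242 of the lower clones. A difference of at least 2-fold was reached by 90 clones in either direction. Arrays 19, 50 and 52 of the metastases and 42 and 49 of the tumors had log2 ratios with an SD over 1.3, and without these 5 arrays 220 clones were higher and 117 lower. Of these, 209 and 95 had also been called with all arrays. Without metastasis 50 alone, 206 clones were lower.

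Of 12 lung epithelium genes measured, 8 rose and none fell, against 2.88% of 7766 genes that rose and 2.58% that fell, with a median difference of 0.98 against -0.03 over all genes. The list holds the 3 markers, and of its other 9 genes 5 rose, with a median difference of 0.54. The mean log2 ratio of the whole list ran from -0.55 to 1.05 in the metastases and from -2.99 to -1.48 in the tumors. Beside the 3 markers, the secretoglobin Scgb3a2 of airway cells rose by 4.08 (SE 0.40, adjusted p = 8.3e-09) and Scgb3a1 by 1.33 (SE 0.20, adjusted p = 2.1e-05). Cyp2f2, a cytochrome P450 of club cells, ran from -2.17 to 0.81 in the metastases and from -8.97 to -2.23 in the tumors, without overlap. Its difference was 2.81 (SE 0.46, adjusted p = 0.00011). Lpcat1, an enzyme of surfactant lipid synthesis, and the membrane protein Emp2 rose by 0.63 and 0.54. The clone named for surfactant protein D (Sftpd) ran from -2.04 to -0.86 in the metastases and from -3.76 to -0.76 in the tumors. Its difference of 0.14 did not pass the test (adjusted p = 0.76). Nor did those of Slc34a2 (0.23), Bpifa1 (0.05) and Aqp5, which went the other way at -0.54 (adjusted p = 0.064 over genes).

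Of 9 genes measured of enzymes that handle lipids, steroids and foreign compounds, 4 rose and none fell, with a median difference of 0.54, and Cyp2f2 is one of them. Ces1d, a carboxylesterase, ran from -2.56 to -0.14 in the metastases and from -11.3 to -0.60 in the tumors. The overlap rests on tumor 79, which holds -0.60 at 793 clones, while every other tumor lay at or under -3.31. The difference was 3.67 (SE 0.67, adjusted p = 0.0005), and 3.86 with the repeated value of each array set missing. Of the clones named here, Aldh2, Cdkl2 and Cnn1 also sit at that value in tumor 79, and Abi3bp sits at the repeated value of metastasis 62. Aldh2, the mitochondrial aldehyde dehydrogenase, rose by 0.44 (SE 0.10, adjusted p = 0.0068). Outside the list, Hsd11b1, which reactivates glucocorticoid, ran from -1.55 to -0.40 in the metastases and from -5.31 to -3.18 in the tumors. All metastases were above all tumors, and the difference was 3.12 (SE 0.19, adjusted p = 6.8e-14). Pon1, a lactonase carried on lipoproteins, rose by 3.52 (SE 0.54, adjusted p = 3.7e-05), and Hc, complement component C5, by 3.0 (SE 0.22, adjusted p = 4.7e-12). The metal transporter Slc39a8 rose by 2.13 (SE 0.15, adjusted p = 1.2e-12).

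Several of the largest rises came from a clone that was alone for its symbol, or whose rise another clone of the symbol did not share. A clone named Cdkl2 rose by 5.54 (SE 0.56, adjusted p = 1.8e-08) and was the sole clone of that symbol. A clone named Rufy3 rose by 4.67 (SE 0.30) while the other Rufy3 clone differed by 0.13 (adjusted p = 0.46). For H2aj, a histone H2A gene, the differences were 4.05 (SE 0.24) and 0.01 (adjusted p = 0.98), and for Dram1, a lysosomal membrane protein, they were 2.77 (SE 0.18) and -0.09 (adjusted p = 0.70). The fatty acid receptor Cd36 had differences of 2.52, 0.44 and 0.05 on its 3 clones, of which the first pair passed the test. Which transcript such a clone reads was not tested, so these symbols name clones and not genes. In the list counts Cd36 is the average of its 3 clones. Clones named Scd1, Atraid and Fam160b1 rose alike, and their ratios over the 33 arrays correlated at 0.95 to 0.99 with each other.

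Of 23 endothelial genes measured 13 rose and 1 fell (Ednrb), with a median difference of 0.49, and without the 5 wide arrays 10 rose. The list's mean log2 ratio ran from -0.66 to -0.25 in the metastases and from -1.72 to -0.68 in the tumors. Ace, the angiotensin-converting enzyme that lung capillaries carry, ran from -1.44 to 0.31 in the metastases and from -2.85 to -1.50 in the tumors. All 10 metastases stood above all 23 tumors, and the difference was 1.40 (SE 0.16, adjusted p = 3.1e-07). Ramp2, a subunit of the adrenomedullin receptor, also separated the groups, with a difference of 1.22 (SE 0.13, adjusted p = 7.1e-08). Icam2, an adhesion molecule of vessels, differed by 1.27 (SE 0.18, adjusted p = 1.3e-05), and 9 of 10 metastases were above all tumors. The junction cadherin Cdh5 had 4 clones with differences of 0.97, 0.92, 0.40 and 0.11, and the larger pair passed the test. The water channel Aqp1 differed by 0.95 on 1 clone (SE 0.17, adjusted p = 0.00029) and by 0.30 on the other (adjusted p = 0.46). Outside the endothelial list Mcam, an adhesion molecule of vessel walls, rose by 1.05 (SE 0.11, adjusted p = 4.5e-08). Of 13 smooth muscle and myoepithelial genes 3 rose (Cnn1, Mylk and Cnn2) and none fell, with a median of 0.17. Calponin 1 (Cnn1) differed by 0.82 (SE 0.22, adjusted p = 0.024), which the test no longer passed without the wide arrays (0.71, adjusted p = 0.20), without metastasis 47 (0.72, adjusted p = 0.064) or without metastasis 50 (0.76, adjusted p = 0.061).

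**Figure D2:**
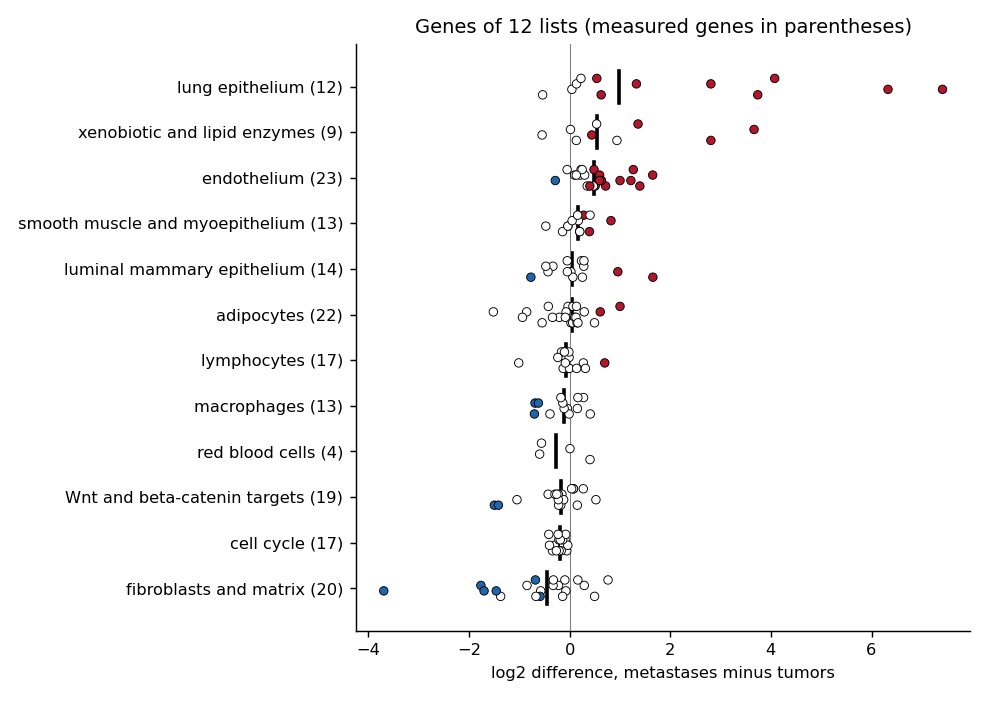
Log2 differences (metastases minus tumors) of the measured genes of 12 gene lists, 1 point a gene, red where the gene rose, blue where it fell and white where it did not pass the test, with a black bar for the list's median. The medians run from 0.98 for lung epithelium to -0.45 for fibroblasts and matrix.

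Part of the matrix genes made by fibroblasts fell. Of 20 genes measured 6 fell and none rose, with a median difference of -0.45, and 6 also fell without the wide arrays. Lum, the collagen-binding proteoglycan lumican, ran from -8.48 to -2.57 with a median of -3.30 in the metastases and from -1.51 to 1.25 with a median of -0.19 in the tumors. The groups did not overlap, and the difference was -3.69 (SE 0.39, adjusted p = 5e-08), and -3.19 without metastasis 50, whose ratio was under 0.01. Outside the list Cilp, a secreted matrix protein known from cartilage, also separated the groups, at -2.38 to -0.41 in the metastases and 0.14 to 2.83 in the tumors. Its difference was -2.29 (SE 0.26, adjusted p = 2.3e-07). Within the list Mfap5, a microfibril protein, fell by 1.76 (SE 0.20, adjusted p = 2.3e-07), with 8 of 10 metastases below all tumors. Thbs2, a matricellular thrombospondin, fell by 1.70 (SE 0.30, adjusted p = 0.00036). The fibrillar collagen Col3a1 fell on both its clones, by 1.65 and 1.27, and Col5a2 fell on 3 of 5 clones, whose differences ran over all 5 from -1.03 to -0.21. Col6a1 fell on 1 of 2 clones, by 0.72 (SE 0.17, adjusted p = 0.0098). Other members did not pass the test, such as Col1a1 at -1.37 (adjusted p = 0.26 over genes), Tnc at -0.85 and Fn1 at 0.76. In bulk samples such as these, fewer cells of a type and less RNA per cell cannot be told apart.

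Some genes of macrophages fell. Of 13 macrophage genes 3 fell, with a median of -0.11. They were C1qc (a complement C1q chain), Adgre1 (the F4/80 antigen) and Mrc1 (the mannose receptor CD206). C1qc ran from 0.11 to 1.04 in the metastases and from 0.51 to 1.81 in the tumors. The groups overlapped, with 7 of 10 metastases below all tumors and a difference of -0.69 (SE 0.12, adjusted p = 0.00033). Adgre1 fell by 0.70 (SE 0.13, adjusted p = 0.00055) and Mrc1 by 0.62 (SE 0.12, adjusted p = 0.0015). The other macrophage genes, among them Cd68 at -0.01, C1qb at -0.04 and Itgax at 0.41, did not pass the test. Outside the list, Folr2 and F13a1 were picked after their values were seen, so their falls are no test of macrophage genes. The folate receptor Folr2 of resident macrophages fell on both its clones, by 1.33 and 0.83. The transglutaminase F13a1 fell by 1.92 (SE 0.28, adjusted p = 1.5e-05) and the chemokine receptor Ccr2 of monocytes by 1.46 (SE 0.24, adjusted p = 8.5e-05). Of 18 chemokine and cytokine genes, Ccr2 and the platelet factor Pf4 fell and Ccl17 rose. Of 17 lymphocyte genes Cd79b rose and none fell, and none of 4 red cell genes passed the test.

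**Figure D3:**
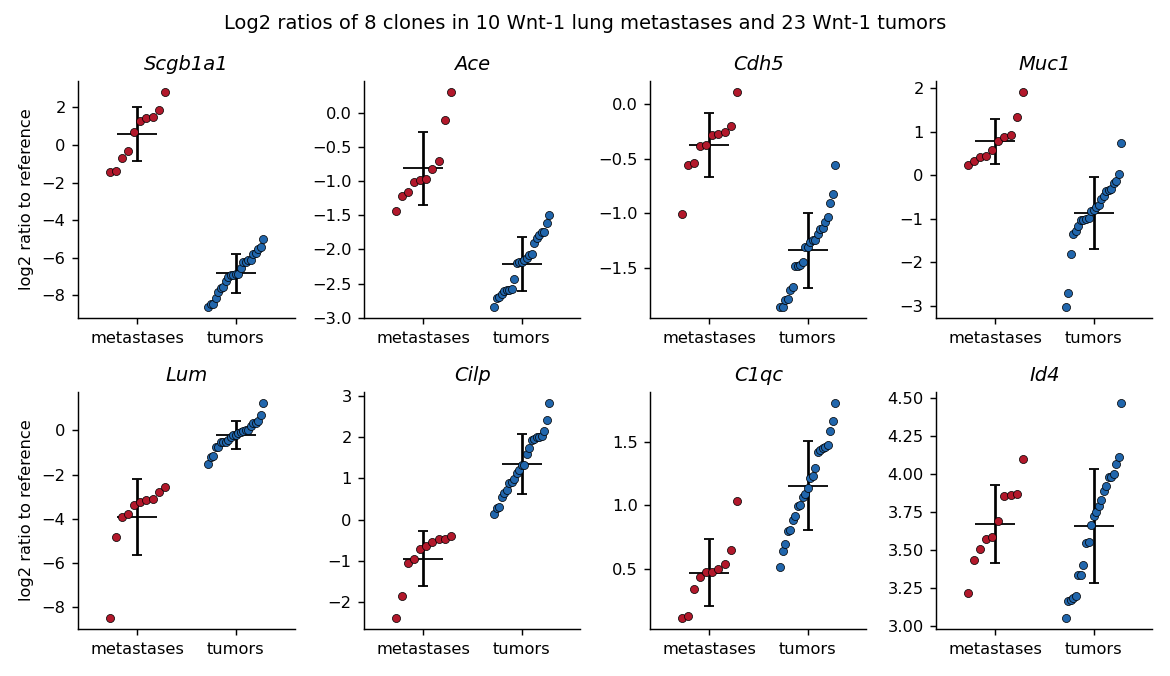
Log2 ratios of 8 clones in each of the 10 Wnt-1 lung metastases (red) and 23 Wnt-1 tumors (blue), with horizontal bars for the mean and vertical bars for 1 SD; each panel has its own axis. Scgb1a1 and Ace are higher in all metastases than in all tumors, Lum and Cilp are lower in all, C1qc overlaps, and Id4 lies in the same range in the groups.

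Genes picked for Wnt signaling and for mammary tumors mostly did not pass the test. In bulk RNA the cells that made these transcripts cannot be told apart. Of 19 Wnt and beta-catenin target genes 2 fell and none rose, with a median of -0.18. Apcdd1, an inhibitor of Wnt signaling that the pathway switches on, ran from -3.59 to 0.28 in the metastases and from -0.35 to 1.25 in the tumors. The groups overlapped in 2 of 10 metastases, and the difference was -1.49 (SE 0.26, adjusted p = 0.00032). Twist1, a transcription factor of mesenchymal cells that is also on the list of junction and EMT genes, fell by 2.63 and 1.10 on 2 of its 3 clones, while the other differed by -0.52 (adjusted p = 0.30). The fall of 2.63 was -1.44 (adjusted p = 0.0026) with ratios under 0.01 or over 100 missing and -1.25 (adjusted p = 0.028) without the wide arrays. The fall of 1.10 did not pass the test without the wide arrays (-0.58, adjusted p = 0.41) nor without metastasis 19, 36, 50 or 52 in turn (-1.04 to -0.85). The feedback inhibitor Axin2 ran from 0.22 to 1.62 in the metastases and from 0.44 to 2.01 in the tumors, with a difference of -0.14 and a 95% interval from -0.47 to 0.19. Myc differed by -0.12, with an interval from -0.31 to 0.08, and cyclin D1 (Ccnd1) by 0.27, with an interval from 0.01 to 0.53. Id4, an inhibitor of helix-loop-helix factors, differed by 0.01 (interval -0.25 to 0.28), the receptor Kit by -0.05 (interval -0.40 to 0.31), keratin 6a (Krt6a) by -0.23 (interval -1.06 to 0.60) and keratin 14 (Krt14) by -0.03 (interval -0.20 to 0.13). The Krt14 clone stayed close to a log2 ratio of 0, from -0.39 to 0.17 in the metastases and from -0.55 to 0.17 in the tumors. Whether that clone follows keratin 14 was not tested. Wnt1 has no clone of its single symbol, so the transgene's own product was not read.

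Among 14 luminal mammary genes 2 rose and 1 fell. Muc1, a mucin of glandular surfaces that lung epithelium also makes, ran from 0.23 to 1.92 in the metastases and from -3.04 to 0.73 in the tumors. The groups overlapped, and the difference was 1.66 (SE 0.28, adjusted p = 0.00014). The tetraspanin Tspan8 rose by 0.96. Krt19, a keratin of simple epithelium, fell by 0.77 (SE 0.14, adjusted p = 0.00046), with 3 of 10 metastases below all tumors. Crym, a protein that binds thyroid hormone, ran from -3.72 to 1.41 in the metastases and from -1.15 to 4.62 in the tumors, and fell by 3.19 (SE 0.57, adjusted p = 0.00034). The authors list Crym, and also Krt6a, among genes that differ by Ha-Ras status in Wnt-1 tumors. The Ras status of the metastases is not known here, and its part in the Crym difference was not tested. Man1a, a mannosidase of the Golgi, fell by 1.3 (SE 0.15, adjusted p = 1.8e-07). The largest falls with a single symbol also included Abi3bp, a matrix protein, which fell by 3.10 (SE 0.70, adjusted p = 0.0051). This value rests on ratios under 0.01, and with those set missing it was -0.89 (adjusted p = 0.37).

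In the other lists few genes or none moved. No gene passed the test in 12 of the 31 lists, which held 99 genes: ciliated cells (2 genes measured), red blood cells (4), cardiac muscle (6), milk proteins (11), matrix proteases and inhibitors (11), cell cycle (17), hypoxia and glycolysis (9), antigen presentation (8), complement (6), metastasis suppressors and promoters (9), ribosomal proteins (8) and mitochondrial respiration (8). All 17 cell cycle genes had a difference below 0, with a median of -0.20, and none passed the test. Over all genes 3324 of 7766 had a difference above 0, with a median of -0.03. Cd36 and the fatty acid synthase Fasn rose among 22 adipocyte genes, Ltf among 8 genes of neutrophils and mast cells, and Mcam, Itga1 and Itga8 among 19 integrins and adhesion genes. Mybpc2 and Atp2a1 fell among 10 skeletal muscle genes, Usp18 among 19 interferon genes and Twist1 among 15 junction and EMT genes. Fos fell among 8 immediate early genes and 9 Ras and MAPK targets, while Btg2 rose among the former and among 9 p53 targets, and Hbegf rose among the Ras and MAPK targets.

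Each clone was also fitted within the 10 metastases alone against the lung marker level, so that the slope makes no use of the tumors. A slope of 1 means that a clone's log2 ratio rose by 1 for each unit of the level. Among the 15356 clones other than those of the markers, 7 had a slope that passed the test (0.0456%). All 7 were above 0 and had also been called higher. They were Ces1d (slope 1.07), Acss2 (0.71), Mettl7a1 (0.94), the Cdkl2 clone (0.95), the H2aj clone (0.92), the Dram1 clone (0.77) and the Rufy3 clone (1.40), with adjusted p between 0.0064 and 0.047. The number of arrays limits this fit, and without metastasis 18 or without metastasis 62, the lowest in lung marker level, no slope passed the test. Without the wide arrays none passed either.

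The sign of the slope went with the direction of the difference. The slope was above 0 for 92.4% of the 380 higher clones and for 17.6% of the 330 lower clones, against 44.4% of all clones. Its unadjusted p was under 0.05 for 46.6% of the higher and 10.0% of the lower clones, against 5.75% of all. Among the higher clones with the steepest slopes were Scgb3a2 and Cyp2f2 of lung epithelium, at 1.58 (unadjusted p = 0.0071) and 0.98 (unadjusted p = 0.00055). Beside the markers, the list's other genes that rose had lower slopes. They were 0.55 for Scgb3a1 (unadjusted p = 0.057), 0.27 for Lpcat1 (unadjusted p = 0.006) and 0.25 for Emp2 (unadjusted p = 0.021). Of the 12 genes of the list 11 had a slope above 0, against 3317 of 7766 genes in all. Hsd11b1 had a slope of 0.34 beside its difference of 3.12, and Hc one of 0.66 beside 3.0.

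Other rises had a slope with an unadjusted p over 0.05, and these were picked out after their values were seen. The largest with a single symbol was Fhl1, a LIM domain protein of muscle, which ran from -1.63 to 0.32 in the metastases and from -4.16 to -0.79 in the tumors. The groups overlapped, with a difference of 2.16 (SE 0.30, adjusted p = 8.4e-06) and a slope of 0.14 (unadjusted p = 0.53). Hdc, the histamine-forming enzyme, rose by 1.63 (SE 0.21, adjusted p = 1.3e-06) with a slope of 0.24 (unadjusted p = 0.14), and Muc1 by 1.66 with a slope of 0.12 (unadjusted p = 0.55). The endothelial genes Ace, Ramp2, Icam2 and Cdh5, and Mcam from the adhesion list, had slopes between 0.07 and 0.27 with unadjusted p from 0.08 to 0.51. Other endothelial genes that rose had a smaller p, with slopes of 0.27 for Cd36 (unadjusted p = 0.007) and 0.15 for Tek (unadjusted p = 0.016). The Cd36 slope is that of the average of 3 clones with unequal differences, and Cd36 is also on the adipocyte list. In the endothelial list 19 of 23 genes had a slope above 0, against 3317 of 7766 genes in all. For the endothelial list's mean and the lung marker level r was 0.62 (adjusted permutation p = 0.14; rho = 0.43, adjusted permutation p = 0.37), and 0.11 without metastases 18 and 62. A p over 0.05 in 10 arrays does not show that such clones are independent of lung RNA.

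The leading falls had slopes nearer to 0 or with a wide error. Lum had a slope of -1.02 (unadjusted p = 0.11), Cilp one of -0.13 (unadjusted p = 0.62), Mfap5 one of -0.17 (unadjusted p = 0.41) and Ccr2 one of -0.03 (unadjusted p = 0.91). C1qc, Adgre1 and Mrc1 had slopes of -0.03, -0.01 and 0.13, and Thbs2 one of -0.65 (unadjusted p = 0.13). Of the list genes that fell, Pf4 (slope -0.41, unadjusted p = 0.042) and Col6a1 (slope 0.43, unadjusted p = 0.0092) had a smaller p. For the matrix list's mean and the lung marker level r was -0.33 (adjusted permutation p = 0.34; rho = -0.35, adjusted permutation p = 0.43) and -0.69 without metastases 18 and 62. For the macrophage list's mean r was 0.60 (adjusted permutation p = 0.14; rho = 0.45, adjusted permutation p = 0.37) and 0.20 without them. Of the 8 relations tested together, the other one to pass in both measures was that of the 4 red cell genes among the metastases: their mean log2 ratio fell as the lung marker level rose (r = -0.87, adjusted permutation p = 0.0018; rho = -0.90, adjusted permutation p = 0.0036), and r was -0.66 without metastases 18 and 62. The slopes of those genes were -1.25 for the alpha globin Hba-a2, -0.56 for Car1, -0.48 for Slc4a1 and -0.46 for Alas2.

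**Figure D4:**
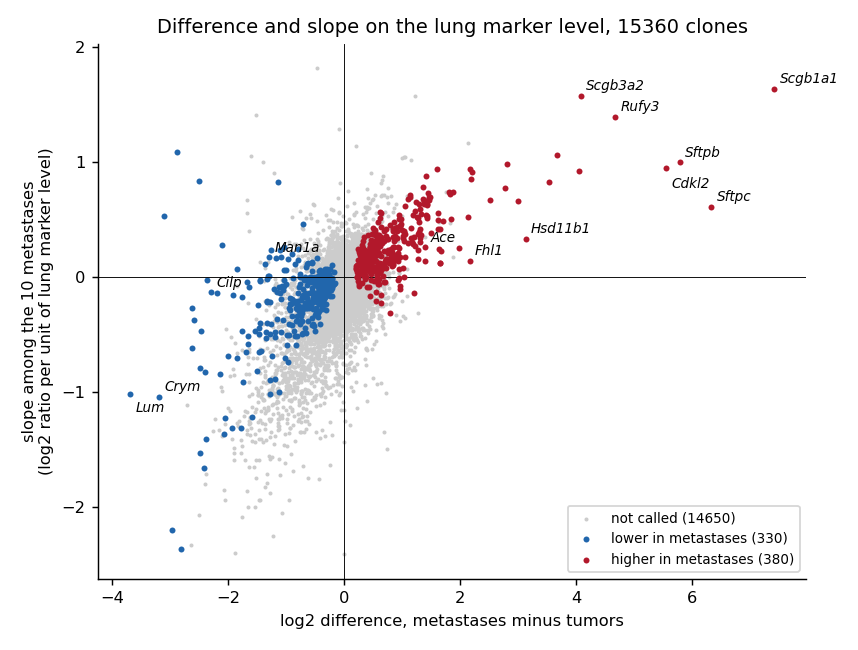
Each of 15360 clones by its log2 difference (metastases minus tumors, x axis) and its slope among the 10 metastases (log2 ratio per unit of lung marker level, y axis), red where higher in the metastases, blue where lower and gray where not called. Higher clones lie almost all above a slope of 0 (92.4%), with Scgb1a1, Sftpc, Sftpb and the Cdkl2 and Rufy3 clones at the far right, and lower clones lie mostly below 0.

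The slopes were also used to read each clone at the lowest lung marker level of the metastases, that of metastasis 18, and to set this value against the tumors' mean. This reading was added after the values were seen, and it does not reach the tumors' range, which begins 3.36 lower. At that level 11 clones were higher (0.0716%) and 4 lower (0.026%), and all 15 had been called the same way. The higher were 4 clones of the 3 markers themselves, Hsd11b1 at 2.63 (adjusted p = 2.8e-05), Hc at 2.01 (adjusted p = 0.0034), Slc39a8 at 1.35 (adjusted p = 0.0015), the clones named H2aj, Rufy3 and Dram1, and 1 clone with no symbol. The marker clones make up the level itself, so their rise at this level was fixed in advance and carries no information. The lower were Man1a at -1.55 (adjusted p = 0.0034), a clone of Smoc2 at -2.37 (adjusted p = 0.033), a clone of Col6a1 at -1.41 (adjusted p = 0.033) and 1 clone with no symbol. Lum stood at -2.18 (adjusted p = 0.60), Cilp at -2.10 (adjusted p = 0.13), Ace at 1.01 (adjusted p = 0.50) and Fhl1 at 1.95 (adjusted p = 0.48). Those 4 kept their direction and did not pass the test. Of the 710 clones called in the comparison, 58 had the opposite sign at this level.

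A fit with the lung marker level of all 33 arrays as a covariate gave other calls. The level does not overlap between the groups, and among the tumors it follows the spread of the array, so group and level cannot be told apart in this fit. At an equal level 51 clones were higher (0.332%) and 384 lower (2.50%), of which 1 and 4 had been called the same way before. The sign turned for 60.8% of the higher and 36.7% of the lower clones, and for 52.7% of all clones. The higher clone that stayed was the H2aj clone, at 3.16 (adjusted p = 0.037). Of the lower ones a Smoc2 clone stayed at -4.32 (adjusted p = 0.013) and Sult2a8, a sulfotransferase, at -11.05 (adjusted p = 0.012). The Sult2a8 clone ran from -10.3 to -4.73 in the metastases and from -9.97 to -4.01 in the tumors, near the lower end of the ratios, and under quantile normalization its difference no longer passed the test (-1.42, adjusted p = 0.085). Of the clones with a single symbol that stayed called, Sult2a8 was the one with a slope p over 0.05.

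Lung also surrounds the metastases of the Neu model, whose contrast shares no array with this one. For 81.3% of the 380 higher clones the Neu difference was above 0, against 49.8% of all clones, and for 73.3% of the 330 lower clones it was below 0, against 50.2%. With 5 Neu metastases and 12 Neu tumors, 29 clones were called higher (0.189%) and 8 lower (0.0521%), and 25 and 3 of these were among the higher and lower clones here. The Neu differences were 4.91 for Scgb1a1, 4.81 for Sftpc and 3.31 and 0.70 for the Sftpb clones, each passing the test. Hsd11b1 (1.83), Hc (2.03) and Slc39a8 (0.88) also passed it in the Neu model, as did the larger pair of Cdh5 clones (0.84 and 0.78) and, downward, Cilp (-1.83, adjusted p = 0.029). Ace stood at 0.82, Lum at -1.88, Mfap5 at -1.03, F13a1 at -0.88 and C1qc at -0.45 in the Neu model, none of which passed.

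The difference between the models was tested by the interaction, and 16 clones passed (0.104%), with the Wnt-1 difference above that of Neu for 11 and below it for 5. Without Neu metastasis 61, the one with the highest lung marker level in its group, 29 passed, and with the title number as a random block 19 passed. Scgb3a2 differed by 4.08 in the Wnt-1 and 0.41 in the Neu model (adjusted p of the interaction 0.0008). The Cdkl2 clone differed by 5.54 and 1.70 (adjusted p = 0.033) and the H2aj clone by 4.05 and 1.27 (adjusted p = 9.7e-05). Mettl7a1 differed by 2.17 and 0.49 and Slc39a8 by 2.13 and 0.88. Alas1, the first enzyme of heme synthesis, had 3 clones. Its differences were 1.81, 1.31 and 0.48 in the Wnt-1 model and 0.12, 0.10 and -0.37 in the Neu model, and the interaction passed the test for the larger pair (adjusted p = 9.7e-05 and 0.0014). Prrg3 (1.42 and 0.19) and 1 of 2 Pcnp clones (1.3 and 0.40) passed as well. Srprb, a subunit of the signal recognition particle receptor, fell by 1.31 on 1 of its 3 clones and stood at 0.46 in the Neu model (adjusted p = 0.0079), and Cactin stood at -0.78 and 0.28 (adjusted p = 0.0082). Krt19 and Crym, which fell here, stood at 0.67 and 0.35 in the Neu model, and their interactions had adjusted p of 0.22 and 0.073. The Wnt-1 metastases had a higher mean lung marker level (1.03) than the Neu metastases (-1.15), and the part of this in the interaction was not tested.

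**Figure D5:**
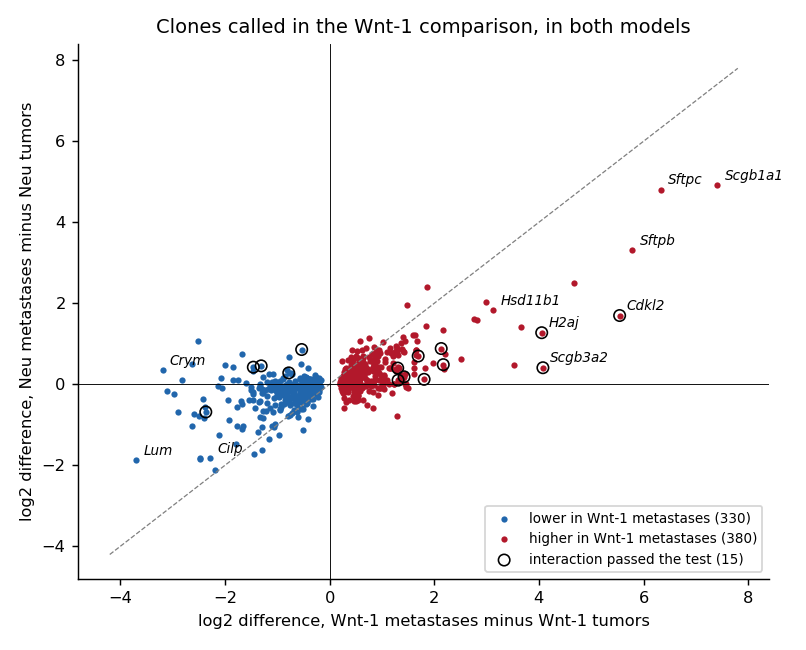
Each of the 710 clones called in the Wnt-1 comparison by its log2 difference in the Wnt-1 model (x axis) and in the Neu model (y axis), red where higher and blue where lower in the Wnt-1 metastases, circled where the interaction passed the test, with a dashed line of equal differences. Most red points lie above 0 on the y axis (81.3%) and most blue points below (73.3%), and Scgb3a2 and the H2aj and Cdkl2 clones lie far under the dashed line.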

How the data were processed

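The authors hybridized Cy5-labeled sample and Cy3-labeled reference cDNA to spotted arrays, scored spots, normalized each array and deposited log2 ratios of sample to reference. Ratios under 0.01 were whole multiples of 1e-04 (tolerance 0.02 of a step), which fixes the base of 2. In the 33 arrays 4 of 506880 values were missing, and 1390 ratios were under 0.01 and 59 over 100. Each array holds 1 value of its own at 81 to 237 clones (793 in tumor 79), while no other value recurs at more than 10, and its source is not given in the sources used here. Such values were kept, and setting them missing was tried. Array medians ran from -0.144 to -0.0084 and SDs from 0.671 to 1.78. Array number limits the precision. Clones were named through a probe table: 11860 carried 1 symbol (7766 genes), 705 several and 2795 none.

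Metastases and tumors were compared in R 4.3.3 with limma 3.58.1 (lmFit, eBayes; Benjamini-Hochberg adjusted p under 0.05) over clones with a value in 50% of each group's arrays. Slopes, the covariate fit and the interaction used the same tools. List counts come from clones averaged per gene, at the same threshold. Relations between arrays used 100000 permutations, two-sided. The 95% intervals use SE and the t quantile of the residual degrees of freedom. Fits were tested on simulated data. Named genes are the 12 largest rises and falls, the 3 leading genes of each list, those of slope and interaction, and genes set by name; Folr2, F13a1, Man1a, Smoc2 and other genes named for a slope p over 0.05 or a call at the lowest level were added after their values were seen. The comparison, lists and genes were chosen with earlier results of these data known. The authors' spot quality scores were not used here.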

Additional observations from a re-analysis of the deposited data

Results flagged for a closer look

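Of 102 clones behind the genes named, 9 had a metastasis set apart from the other 9 of its group by Dixon's test, which chance alone would do in about 1 in 20 clones. Array 50, one of the wide arrays, gave 4 of these values: -8.48 for Lum, -3.319 for Thbs2, 0.8408 for a Col5a2 clone and 0.3783 for a Cdh5 clone. Array 49 gave -0.645 for Adgre1 and -5.939 for a Cpxm1 clone, array 38 gave -2.756 for a Col3a1 clone and 0.1481 for a Col5a2 clone, and array 18 gave -4.861 for a Smoc2 clone. In the Neu model the lung marker level of metastasis 61, at 1.181, stood apart from the other 4.

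The difference between metastases and tumors was unlike in the Wnt-1 and Neu models, by the interaction test, for 13 clones with a single symbol. The Wnt-1 difference minus the Neu difference was 3.843 for Cdkl2, 3.667 for Scgb3a2, 2.779 for H2aj, 1.687 for Mettl7a1, 1.683 and 1.208 for Alas1 clones, 1.25 for Slc39a8, 1.237 for Prrg3, 0.9951 for an Sftpb clone, 0.9013 for Pcnp and 0.655 for a Nod1 clone. It was -1.762 for Srprb and -1.062 for Cactin.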

How the results depend on the processing

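The 380 higher and 330 lower clones became 90 and 90 at 2-fold or more, and 224 and 200 genes with clones averaged. They became 220 and 117 without the 5 wide arrays, and 11 and 4 on the metastases' line at their lowest lung marker level. The 11 include the 4 marker clones. With the level as a covariate 51 clones were higher and 384 lower, mostly other clones, since 1 and 4 of these had been called the same way. With all groups in 1 fit 502 were lower, and by the methods' permutation t-test 205. Leaving out 1 metastasis gave 302 to 424 higher and 206 to 432 lower. The 7 clones whose slope passed became 3 with the lung epithelium list in place of the markers, 0 without the wide arrays and 0 to 7 without 1 metastasis. The 5 clones kept at an equal level became 8 with that list, 1 after quantile normalization, 2 without the wide arrays and 4 to 13 without 1 metastasis. The 16 interactions became 10 without the tail vein arrays, 25 after quantile normalization, 9 without the wide arrays and 12 to 29 without 1 Neu metastasis. The wide-array and lowest-level settings were chosen after seeing the data. So was setting each array's repeated value missing, which gave 381 higher and 340 lower clones.

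At an equal lung marker level the sign turned for Acss2 (-0.91), Alas1 (-0.21, -0.19 and -0.12), Aldh2 (-0.35), Ccr2 (0.18), Cd36 (-0.32 and -0.22), 2 Cdh5 clones (-0.56 and -0.21), Ces1d (-5.09), Cilp (0.21), Crym (0.37), Cyp2f2 (-3.09), 1 Folr2 clone (0.015), Icam2 (-1.42), Mettl7a1 (-0.60), Muc1 (-0.77), Pon1 (-3.85) and the uncalled Sftpd clone (-2.31), and the cause was not tested. It also turned for 1 Sftpb clone (-1.72) and Sftpc (-0.15). These markers make up the level itself, so the fit ties their differences to each other and their signs carry no information.

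Metastases and tumors share 7 title numbers, but same-numbered arrays did not deviate together in every case (r from -0.06 to 0.29), so the numbers were not taken as pairs. A replicate block over these 14 arrays called 75 higher and 27 lower clones, against 136 and 40 without the block on the same arrays. With the block 4 lung epithelium, 8 endothelium and 1 enzyme genes were higher, and 3 matrix and 0 macrophage genes were lower. Without the block on the same arrays these counts were 6, 11, 2, 4 and 1.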
